A study of Mus musculus with 8 samples.

Results

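Malat1, Neat1 and Rn45s are 3 noncoding RNAs made in the nucleus, and they were followed across 8 RNA-seq libraries of mouse muscle stem cells. They were chosen by name, as 3 of the 24328 entries of the deposited gene table, and selected on their measured FPKM levels and shares in the same 8 libraries, which earlier results had shown to differ between groups. Their own levels, shares and differences are therefore given as a description, with no test. All 3 passed the filter on low values used for testing, which 12515 entries passed in all.

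RNA was measured in muscle stem cells (satellite cells) of skeletal muscle from mice aged 2 months on a C57BL/6 background, sorted for Vcam and against 3 surface proteins of endothelial, blood and other stromal cells (CD31, CD45 and Sca-1). The 8 libraries form 4 groups of 2. PFA-perfused libraries came from Pax7-nGFP mice perfused with paraformaldehyde, a fixative, before the cells were isolated. PBS-perfused libraries came from Pax7-nGFP mice perfused with buffer, without fixative. Unperfused libraries came from wild type mice without perfusion, and injury-activated libraries from wild type, unperfused mice 2.5 days after muscle injury. Pax7-nGFP is a line that carries a nuclear green fluorescent protein driven by Pax7, a transcription factor of satellite cells. Perfusion and genotype cannot be told apart between the perfused and unperfused groups. The RNA of fixed cells was purified with another kit than that of unfixed cells, so fixation and RNA kit cannot be told apart either. Whether both libraries of a group are from different animals is not in the labels. The p-values given for other genes therefore reflect the spread between libraries only, and that spread may be technical.

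Malat1 is an abundant long noncoding RNA of nuclear speckles, bodies rich in splicing factors. Neat1 is the RNA around which paraspeckles form, and is made as a short isoform with a poly(A) tail and a long isoform that builds the body. Rn45s is the precursor of the 18S, 5.8S and 28S ribosomal RNAs, made by RNA polymerase I in the nucleolus and normally processed there within a short time. Malat1 and long Neat1 share an unusual end: RNase P cuts the transcript, and the new end is protected by a triple helix in place of a tail. Rn45s has no poly(A) tail of the kind messenger RNAs carry. The labels give the measured molecule as polyA RNA and name a SMART-Seq v4 kit for the cDNA.

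The ends of both long noncoding RNAs are printed here because they are the feature these transcripts have in common and that sets them apart from ordinary messenger RNAs. Sequences are GENCODE M21 transcripts on GRCm38, while the deposited values were made on mm9, so only positions within the transcript are given. Capitals mark the 3 runs of at least 11 bases that are shared by the last 400 bases of both transcripts: 2 U-rich runs (written with T) and 1 A-rich run, the parts known to pair into the triple helix.
Malat1-201, bases 6602 to 6765 of 6983: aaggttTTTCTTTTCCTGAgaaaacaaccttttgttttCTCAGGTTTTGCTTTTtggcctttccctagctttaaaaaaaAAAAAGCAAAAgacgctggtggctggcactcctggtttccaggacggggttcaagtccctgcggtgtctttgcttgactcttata
Neat1-201, bases 20662 to 20771 of 20771: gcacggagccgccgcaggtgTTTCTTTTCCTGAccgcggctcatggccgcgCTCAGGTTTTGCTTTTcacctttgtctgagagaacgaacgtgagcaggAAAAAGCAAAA
The annotated Neat1-201 ends with its A-rich run, whereas the annotated Malat1-201 goes on through the tRNA-like stretch that RNase P releases. On the transcript strand, the run TTTCTTTTCCTGA occurred in 14 (0.199%) of the 7040 GENCODE transcripts of at least 5000 bases, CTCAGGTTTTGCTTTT in 2 (0.0284%) and AAAAAGCAAAA in 187 (2.66%). The longest stretch of A in Malat1, 12 bases that overlap the start of its A-rich run, ends 298 bases before the end of the annotated transcript. A stretch of at least 12 A was found in 19.7% of the same 7040 transcripts, and the longest in Neat1-201 was 7.

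The last 50 bases of the annotated Malat1 and of the short Neat1 isoform are shown with the polyadenylation signal AATAAA in capitals, which marks the alternative, tailed end.
Malat1-201, bases 6934 to 6983: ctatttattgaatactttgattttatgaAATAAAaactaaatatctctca
Neat1-202, bases 2955 to 3004: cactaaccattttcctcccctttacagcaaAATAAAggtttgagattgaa
The signal occurred in the last 50 bases of 55.9% of the 7040 long transcripts, and not in those of Neat1-201. A match of letters describes the annotated transcript, not the ends of the RNA in these libraries. How the 3 RNAs entered the cDNA was not tested.

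The deposited values, taken as FPKM (a fragment count divided by transcript length and by library size), summed to between 461454 and 582336 per library, and read depth is unknown. The 2 injury-activated libraries were closest to each other, with a median ratio of the higher to the lower library of 1.05 over entries of at least 10 FPKM, against 1.17 in PFA-perfused, 1.26 in PBS-perfused and 1.28 in unperfused cells. Pax7 itself stood at 328 and 567 FPKM in PFA-perfused, 48.3 and 79.6 in PBS-perfused, 19.8 and 20.4 in unperfused and 4.59 and 4.40 in injury-activated libraries. By the limma test used for all genes below, 2 of 8 satellite cell markers rose and 4 fell in PBS-perfused against PFA-perfused cells (17.8% and 46.2% of all entries did). In unperfused cells 3 rose and 4 fell against PFA-perfused (17.4% and 56.3%) and 2 rose and 5 fell against PBS-perfused cells (13.1% and 36.5%). After injury 1 rose and 5 fell (40.8% and 29.3%). The summed FPKM of the 8 satellite cell markers was 2226 and 2329 in PFA-perfused, 1823 and 1936 in PBS-perfused, 2187 and 3284 in unperfused and 549 and 562 in injury-activated libraries. Markers of other cell types summed to less than these in every group. The 6 endothelial markers summed to 110 to 185 in PBS-perfused cells against 55.1 to 55.8, 23.3 to 37.1 and 5.89 to 6.63 in PFA-perfused, unperfused and injury-activated cells in that order. The sum of the 6 fibro-adipogenic markers was mostly Dpt in PFA-perfused (318 to 633 FPKM) and unperfused cells (456 to 474). In PBS-perfused cells Dpt was 69.4 to 260 of a sum of 158 to 385 FPKM. In injury-activated cells it was 5.61 to 5.81 of 59.5 to 67.1 FPKM. By the same limma test 5 of these 6 markers rose and 1 fell in PBS-perfused against PFA-perfused cells (median log2 difference 2.14). In unperfused against PBS-perfused cells 5 fell and 1 rose (-1.67), and after injury 4 rose and 1 fell (2.18). The shares of all entries called are those given above. The 6 haematopoietic markers summed to at most 7.16 FPKM in PFA-perfused (Itgam at 0 in both libraries), 41.2 to 43.9 in PBS-perfused, 26.7 to 37.8 in unperfused and 60.9 to 67.5 in injury-activated cells. Of the 4 tested, 4 rose in PBS-perfused against PFA-perfused cells, where 17.8% of all entries rose. After injury 3 rose and 1 fell, where 40.8% and 29.3% of all entries did. The 4 mural markers summed to 5.80 to 6.98, 25.1 to 54.4, 16.2 to 16.5 and 4.68 to 6.26 FPKM, with the groups so ordered, and the 3 erythroid markers to 0.244 to 33.2, 54.0 to 55.7, 1.33 to 2.48 and 2.09 to 5.55. The 5 myofibre markers summed to 158 and 200 in injury-activated libraries against at most 43.8 elsewhere. The 3 glial markers summed to at most 13.2. In bulk libraries fewer cells of a type and less RNA per cell cannot be told apart, and the part of other cells in the results below was not tested.

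Malat1 stood at 42570 and 39963 FPKM in the PFA-perfused libraries and at 35521 and 40899 FPKM in the PBS-perfused libraries. It stood at 6017 and 5368 FPKM in the unperfused libraries and at 436 and 367 FPKM in the injury-activated ones. The perfused groups overlapped and lay above the unperfused group, which lay above the injury-activated group. As a share of the summed FPKM of a library, Malat1 made up 7.43% and 6.86% (PFA-perfused), 6.71% and 7.38% (PBS-perfused), 1.25% and 1.16% (unperfused), and 0.0796% and 0.0665% (injury-activated). It was the highest of all entries in both PBS-perfused libraries and ranked 211 and 267 in the injury-activated ones. Between the libraries of a group the higher Malat1 value was 1.07 (PFA-perfused), 1.15 (PBS-perfused), 1.12 (unperfused) and 1.19 times the lower. In the injury-activated group that ratio was larger than for most entries, and 280 of 4736 (5.91%) exceeded it.

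Neat1 was far less abundant. It stood at 348 and 373 FPKM in PFA-perfused, 235 and 461 in PBS-perfused and 280 and 181 in unperfused libraries. In the injury-activated libraries it stood at 4.12 and 1.41 FPKM. The PBS-perfused libraries spanned the values of the PFA-perfused group and overlapped with those of the unperfused group, while the injury-activated libraries lay far below all others. Neat1 was 0.0392% to 0.0830% of the summed FPKM in the 6 libraries from uninjured muscle and at most 0.000752% after injury, where its rank among all entries was 6956 and 8974. The spread between libraries was widest in injury-activated cells, at 2.91 times, on values near 1 FPKM. Values of Neat1 and Malat1 are per length, but how the authors combined the isoforms of a gene is not given in the sources used here, which limits a comparison of their levels.

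Rn45s, the ribosomal RNA precursor, spanned the widest range. It stood at 56137 and 112867 FPKM in the PFA-perfused libraries, where it was the highest of all entries. It stood at 4730 and 36839 FPKM in the PBS-perfused libraries, at 137 and 123 FPKM in the unperfused ones, and at 1952 and 2000.1 FPKM in the injury-activated ones. The 4 groups did not overlap, and Rn45s was the member that was higher in injury-activated than in unperfused cells. Its share of the summed FPKM was 9.80% and 19.4%, then 0.893% and 6.64%, then 0.0285% and 0.0266%, and last 0.356% and 0.363%, with the groups ordered as above. The PBS-perfused libraries differed by 7.79 times for Rn45s, a ratio that none of the 4529 entries at 10 FPKM or more in both libraries exceeded. Between the PFA-perfused libraries the ratio was 2.01, exceeded by 80 of 5651 such entries (1.42%).

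**Figure D1:**
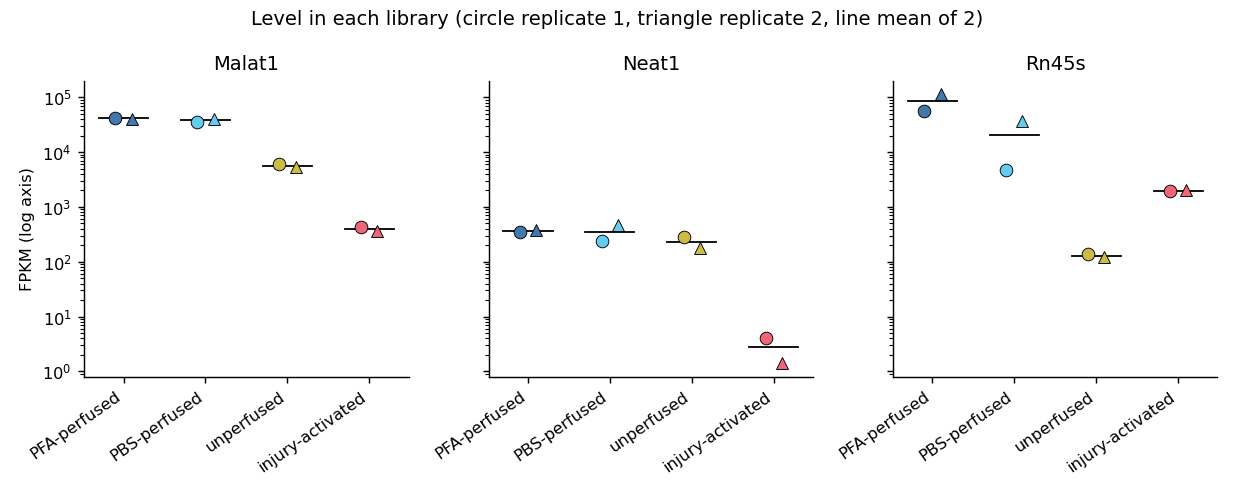
FPKM of Malat1, Neat1 and Rn45s in each of the 8 libraries on a log axis, by group, with 1 point per library and a bar at the group mean. Malat1 and Neat1 are lowest in the injury-activated libraries, whereas Rn45s is lowest in the unperfused libraries at 137 and 123 FPKM.

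Together the 3 RNAs made up 17.3% and 26.3% of the summed FPKM in PFA-perfused libraries, 7.64% and 14.1% in PBS-perfused libraries, 1.33% and 1.23% in unperfused libraries and 0.437% and 0.429% in injury-activated libraries. In the last 2 groups another entry was the highest of the library. This was Sdc4, a heparan sulphate proteoglycan of the satellite cell surface, in the unperfused libraries (5.84% and 8.74%), and Rplp0, a ribosomal protein, in the injury-activated ones.

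**Figure D2:**
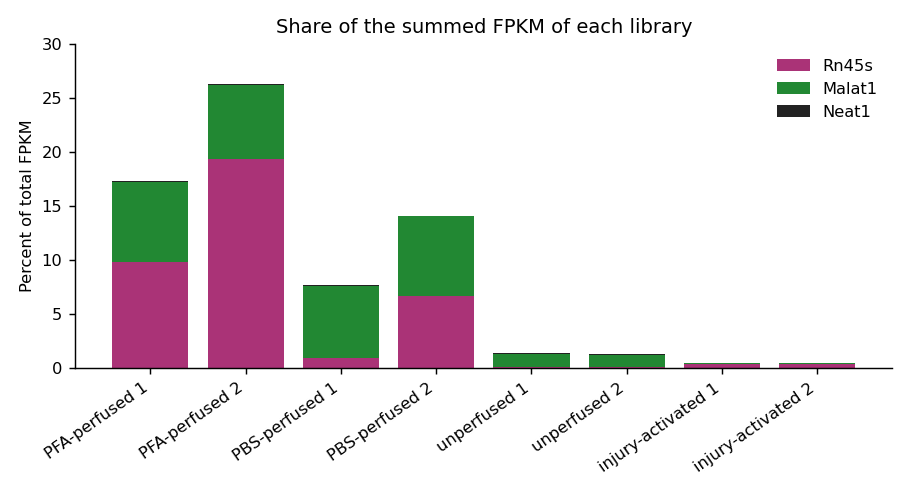
Percent of the summed FPKM of each library that Malat1, Neat1 and Rn45s made up, stacked, 1 bar per library, from 0. The sum falls from 26.3% in the second PFA-perfused library to 0.429% in the second injury-activated library, and Neat1, at most 0.0830%, is too thin to be seen.

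Differences between groups were taken as the difference of mean log2(FPKM + 1), which understates changes of low entries. The median difference of all tested genes was not 0: it was -0.50 for PBS-perfused and -0.81 for unperfused against PFA-perfused cells, -0.36 for unperfused against PBS-perfused, and 0.17 for injury-activated against unperfused. After scaling by the trimmed mean of ratios those medians were -0.00, 0.06, 0.01 and 0.05. Single entries could move by more than the medians did: Malat1 went from -2.86 to -1.69 in unperfused against PFA-perfused cells. The size of a difference thus depends on the scaling, as does the direction of a small one. The 3 comparisons among PFA-perfused, PBS-perfused and unperfused cells share libraries, as do those with unperfused cells, so their values are set side by side and not counted as separate evidence.

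Between PBS-perfused and PFA-perfused cells, which differ in fixation and RNA kit, the mean of Malat1 was 38210 ± 3803 against 41267 ± 1843 FPKM (SD, n = 2 in each group). The log2 difference was -0.11 as deposited, but trimmed mean scaling gave 0.50 and quantile normalization 0.97. Quantile normalization sets a value by its rank. Malat1 ranked 2 in both PFA-perfused libraries, below Rn45s, and 1 in both PBS-perfused libraries. Its 0.97 came from those ranks and is not a separate estimate of the change. Neat1 likewise differed by -0.13 as deposited, 0.48 with trimmed mean scaling and -0.40 with quantile normalization, and by 0.35 without the first PBS-perfused library. For these 2 RNAs the libraries overlapped as deposited and no direction held across the scalings. With trimmed mean scaling Malat1 did not overlap, at 25767 and 25502 in PFA-perfused and 33566 and 39024 in PBS-perfused libraries. Rn45s was lower in PBS-perfused cells by -2.59 as deposited, -1.98 with trimmed mean scaling and -2.10 with quantile normalization. Its mean was 4.07 times lower, but the size rested on single libraries: the difference was -1.11 without the first and -4.07 without the second PBS-perfused library, and -3.10 and -2.09 without the first and second PFA-perfused library.

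Unperfused cells held less Malat1 than either perfused group. Against PFA-perfused cells the log2 difference of Malat1 was -2.86, or -1.69 and -2.22 under the trimmed mean and quantile scalings. Against PBS-perfused cells it was -2.75, or -2.18 and -3.18. The mean was 5693 ± 459 FPKM (SD, n = 2), 7.25 times below PFA-perfused and 6.71 times below PBS-perfused cells. Neat1, by contrast, had a log2 difference of -0.67 against PFA-perfused cells that turned to 0.49 with trimmed mean scaling but stayed at -0.79 with quantile normalization. Against PBS-perfused cells it was -0.54, or 0.02 and -0.39 under those scalings. The share of Malat1 in the total thus differed between perfused and unperfused libraries while that of its neighbour Neat1 lay within or near the same range.

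Rn45s had the lowest log2 difference of all 12515 tested entries between unperfused and PFA-perfused cells, at -9.25 (-8.08 and -8.14 under the other scalings). Its mean was 649 times lower, at 130.2 ± 10.2 against 84502 ± 40114 FPKM (SD, n = 2). Between unperfused and PBS-perfused cells the log2 difference was -6.66, with -8.14 without the first and -5.18 without the second PBS-perfused library.

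After injury the 3 RNAs parted. Malat1 was lower in injury-activated than in unperfused cells by a log2 difference of -3.83 (-4.04 and -3.80 under the other scalings), from 5693 ± 459 to 401 ± 48.5 FPKM (SD, n = 2), which is 14.2 times lower. Neat1 was lower by -6.01 (-6.30 and -5.85), from 231 ± 70.1 to 2.77 ± 1.91 FPKM, which is 83.4 times lower. Rn45s was higher by 3.92 (3.71 and 3.58), from 130.2 ± 10.2 to 1976 ± 34.3 FPKM, which is 15.2 times higher. When any 1 of the 4 libraries was left out, these differences were, in turn, between -3.70 and -3.95, between -5.47 and -6.55, and at 3.84 or above. Both groups were wild type, unperfused and unfixed.

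Ratios of the 3 RNAs within a library are free of any scaling between libraries. Malat1 stood at 122 and 107 times the FPKM of Neat1 in PFA-perfused, 151 and 88.8 times in PBS-perfused, 21.5 and 29.6 times in unperfused and 106 and 260 times in injury-activated libraries. The unperfused libraries thus had the lowest ratio of all. The log2 ratio of Rn45s to Malat1 was 0.40 and 1.50 in PFA-perfused, -2.91 and -0.15 in PBS-perfused, -5.45 and -5.45 in unperfused and 2.16 and 2.45 in injury-activated libraries. Rn45s exceeded Malat1 in PFA-perfused and injury-activated cells and was below it in the other groups. The log2 ratio of Rn45s to Neat1 was lowest in unperfused libraries, at -1.03 and -0.56, and highest in injury-activated ones, at 8.89 and 10.47, with 7.33 and 8.24 in PFA-perfused and 4.33 and 6.32 in PBS-perfused libraries.

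**Figure D3:**
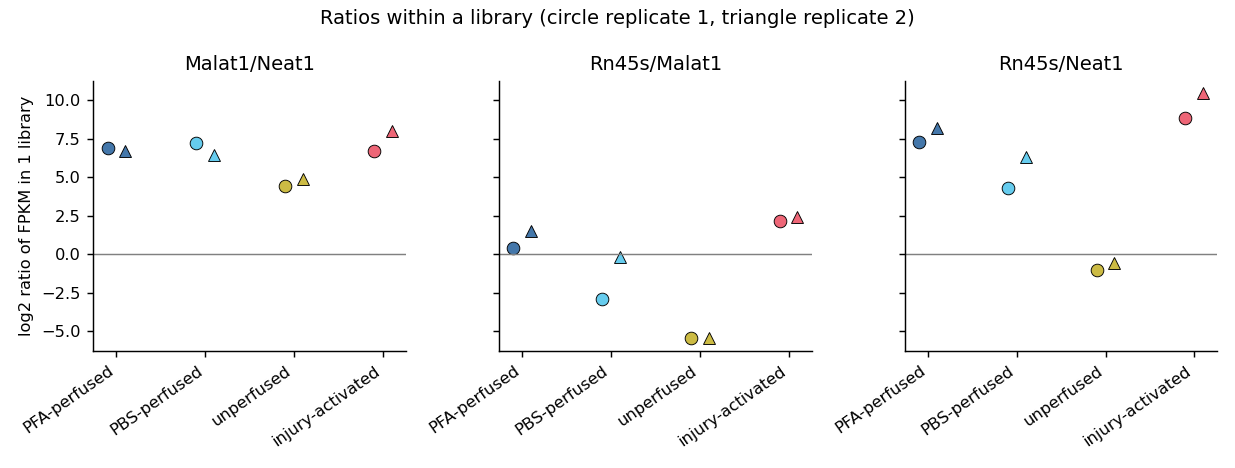
Log2 ratios of the FPKM of Rn45s to Malat1, Rn45s to Neat1 and Malat1 to Neat1 within each of the 8 libraries, 1 point per library, by group. The ratios that hold Rn45s are lowest in the unperfused libraries, with both at -5.45 for Rn45s to Malat1.

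Across the 8 libraries the log2 levels of Malat1 and Neat1 had a Pearson r of 0.936, those of Malat1 and Rn45s one of 0.551 and those of Neat1 and Rn45s one of 0.273. These are descriptions over libraries that share groups and totals. Among 7723 tested entries with a group mean of at least 10 FPKM, the entry most like Malat1 was A630072M18Rik, a long noncoding RNA, with r = 0.997 (0.998 and again first after trimmed mean scaling). It stood at 79.8 and 68.1 FPKM in PFA-perfused, 57.9 and 79.8 in PBS-perfused, 13.3 and 12.8 in unperfused and 1.40 and 1.31 in injury-activated libraries, the same order as Malat1 at a much lower level. Next came 2310036O22Rik (0.996), Rerg, a small GTPase (0.995), P2ry1, a purinergic receptor (0.995), and Slc30a9, a zinc transporter family member (0.995). After trimmed mean scaling these 4 were not among the first 5. For Neat1 the 5 highest were Casc3, an exon junction complex subunit (0.996), Pptc7, a mitochondrial phosphatase (0.996), Ndst1, a heparan sulphate enzyme (0.993), Lamc3, a laminin chain (0.989), and Thsd4 (0.989), none of which was among the first 5 after trimmed mean scaling. For Rn45s they were C330021F23Rik (0.991), the transcribed pseudogene Gm15421 (0.988), the peptidase Thop1 (0.986), Rpl14-ps1 (0.983) and Setd5 (0.982), of which 3 stayed among the first 5. C330021F23Rik, listed by RefSeq as Rps23rg1, and Rpl14-ps1 are copies of ribosomal protein genes, so their values are uncertain where reads could be shared with the parent gene. Rpl14-ps1 stood at 140 and 165 FPKM in PFA-perfused, 39.1 and 87.0 in PBS-perfused, 16.1 and 10.6 in unperfused and 41.3 and 42.7 in injury-activated libraries.

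Genes known to work with the 3 RNAs were tested with limma over all entries, with a call where the Benjamini-Hochberg adjusted p was under 0.05. The share of all 12515 tested entries called was 64% in PBS-perfused against PFA-perfused cells (17.8% higher, 46.2% lower), 73.6% in unperfused against PFA-perfused cells (17.4% higher, 56.3% lower), 49.6% in unperfused against PBS-perfused cells (13.1% higher, 36.5% lower) and 70% in injury-activated against unperfused cells (40.8% higher, 29.3% lower). After trimmed mean scaling 28.4% were called higher and 25.6% lower in the first comparison, 36.2% and 31.6% in the second, 24.9% and 22.9% in the third, 39.7% and 34.5% in the last. With so many entries called, each count below is read against these shares, and the lists were chosen with earlier results known.

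Of 41 other nuclear and chromatin-associated long noncoding RNAs in the table, 23 were tested. In injury-activated against unperfused cells 13 fell and 3 rose, where 29.3% of all entries fell, and their median log2 difference was -2.22 against 0.17 for all genes (16 fell, 3 rose and the median was -2.12 with trimmed mean scaling). Without the filter 16 of the 41 fell and 4 rose, with a median of -0.04, where 15.7% of all entries fell and 21.4% rose. Mirg, a microRNA host transcript of the imprinted Dlk1-Dio3 region, fell by 6.97 ± 0.26 (SE), the most of the list. Mir17hg, the host of the miR-17 cluster, fell by 6.79 ± 0.30. Mirg stood at 135 and 190 FPKM in unperfused and 0.353 and 0.219 FPKM in injury-activated libraries. Meg3, from the same imprinted region, fell from 51.6 and 56.7 to 0.0570 and 0.0410 FPKM, a log2 difference of -5.72 ± 0.37. Kcnq1ot1, an antisense RNA that silences an imprinted cluster, fell by 3.97 ± 0.32, and Airn, the antisense RNA of Igf2r, fell by 1.78 ± 0.20. No strand setting is stated for the counting, so reads of these 2 and of the genes opposite them cannot be told apart. Tug1, a chromatin-linked long noncoding RNA, fell by 2.95. H19 and Peg13 rose, by 1.58 ± 0.23 and 1.18 ± 0.21.

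Between unperfused and PFA-perfused cells, 12 of the 23 fell and 6 rose, near the 56.3% and somewhat above the 17.4% of all entries (10 and 12 with trimmed mean scaling, and 7 fell without either PFA-perfused library), with a median of -0.86 against -0.81 for all genes as deposited, and 1.17 with trimmed mean scaling. Tug1 rose by 5.69 ± 0.42, from 13.2 and 19.8 FPKM to 708 and 1105 FPKM, and Mir17hg by 5.31, from 71.0 and 104 to 3355 and 3563 FPKM. Both stood highest in the unperfused libraries, where Malat1 stood below both perfused groups. Xist, the X-inactivation RNA, reached at most 0.294 FPKM and was not tested. Of all 1799 entries that GENCODE M21 classes as long noncoding RNA, a class added with values known, 345 were tested. After injury 131 of these fell and 51 rose, which is 37.97% and 14.78% of those tested, with a median of -0.24. In that comparison 29.3% of all entries fell and 40.8% rose, with a median of 0.17.

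**Figure D4:**
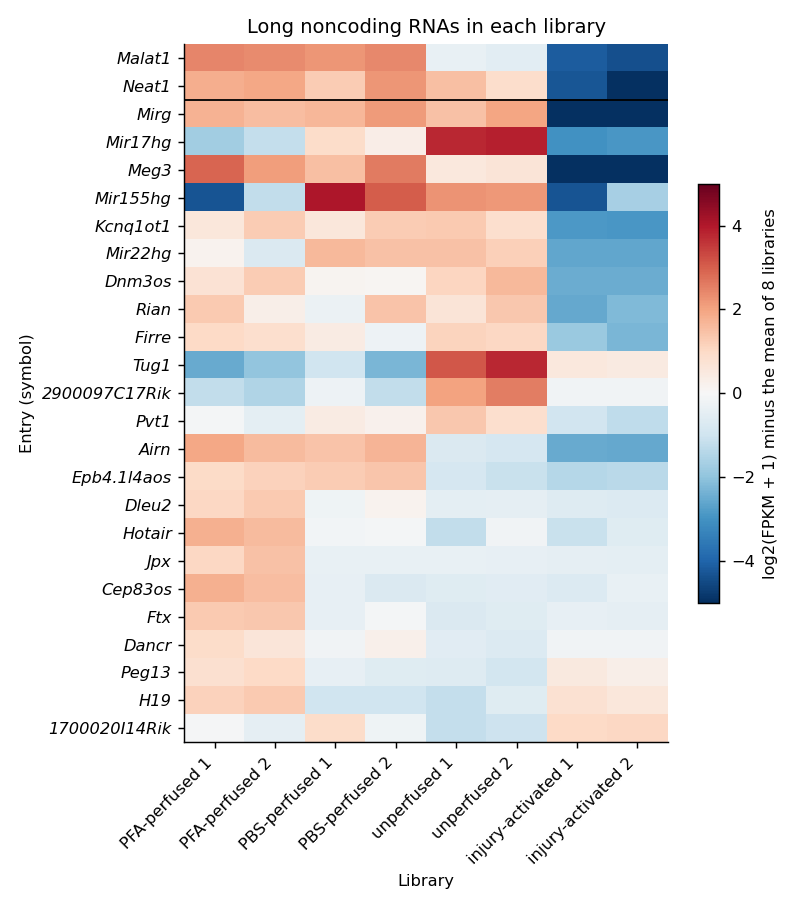
Log2(FPKM + 1) of Malat1, Neat1 (above the line) and the 23 tested long noncoding RNAs of the list in each of the 8 libraries, minus the mean of the entry over the libraries, from blue (lower) to red (higher), with the colour clipped at 5 in either direction. Rows of the list are ordered by the difference of injury-activated from unperfused cells, from Mirg at -6.97 down; Tug1 and Mir17hg are highest in the unperfused libraries.

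Of 34 paraspeckle proteins, the partners of Neat1, 14 rose and 11 fell in injury-activated against unperfused cells (11 and 11 with trimmed mean scaling). These are 41.2% and 32.4% of the list, near the 40.8% and 29.3% of all entries, with a median of 0.20 that was -0.10 with quantile normalization. Nono, an RNA-binding core protein of paraspeckles, rose by 3.18 ± 0.26 (SE, limma adjusted p = 7.5e-06), from 61.7 and 39.7 to 448 and 467 FPKM. Its usual partner Sfpq fell by 2.93 ± 0.22, from 101 and 126 to 14.2 and 13.8 FPKM. Pspc1, the third protein of the same family, stood at 20.2 and 15.7 against 24.2 and 22.1 FPKM and did not pass the test (0.36), although it did without the first unperfused library (0.53). In unperfused against PFA-perfused cells 17 of the 34 fell and 8 rose (7 and 16 with trimmed mean scaling), and 5 rose without the second PFA-perfused or without the first unperfused library. Of all entries 56.3% fell and 17.4% rose in that comparison as deposited. Sfpq rose there by 1.78 and Hnrnpa1, an RNA-binding protein that also binds many messenger RNAs, by 4.14. Cirbp, a cold-inducible RNA-binding protein, fell by 3.28.

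Nuclear speckle proteins, which share their body with Malat1, fell in 16 cases and rose in 9 of 35 after injury, with a median of -0.08. These are 45.7% and 25.7% of the list, against the 29.3% and 40.8% of all entries that fell and rose. Srsf2, a splicing factor of the speckle core, fell by 5.41 ± 0.33, from 967 and 1592 to 29.1 and 27.4 FPKM. The speckle scaffolds Son and Srrm2 fell by 1.43 and 1.87. Srsf1, another splicing factor, did not pass the test, with a difference of 0.25 as deposited and -0.18 with quantile normalization. Between unperfused and PFA-perfused cells 14 fell and 6 rose, against 3 and 21 with trimmed mean scaling. As deposited these were 40% and 17.1% of the list, against 56.3% and 17.4% of all entries. Srsf2 rose there by 3.51, from 131 and 89.4 FPKM, and Son fell by 1.57 as deposited, a call that was lost with trimmed mean scaling (-0.40).

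Of 14 genes that act on the Malat1 end (RNase P subunits, the tRNA end processing nuclease Elac2 and triple helix binders), 12 were tested. After injury 11 rose and 0 fell by limma (0 also at an unadjusted p under 0.05), with a median of 1.70, whereas 40.8% of all entries rose. With trimmed mean scaling 10 rose and 1 fell, and with quantile normalization 9 rose and 1 fell. The RNase P subunits Pop7 and Rpp30 rose by 2.79 and 2.78, and Mettl16, a methyltransferase that binds the Malat1 triple helix, rose by 2.41 ± 0.30. Elac2 rose by 0.70, which did not pass the test without the second unperfused library (0.46), without the first or the second injury-activated library (0.64 and 0.76), or with quantile normalization (0.31). Rpph1, the RNA subunit of RNase P, reached at most 2.08 FPKM and was not tested. In unperfused against PFA-perfused cells 10 of the 12 fell and 1 rose, against 4 and 2 with trimmed mean scaling, with Rpp21 at -3.20. Of all entries 56.3% fell and 17.4% rose there as deposited. Of 10 genes known to act on Neat1 transcription or isoform choice, 5 rose and 3 fell after injury, with a median of 0.64, where 40.8% and 29.3% of all entries rose and fell. Among them Trp53, which encodes p53, rose by 2.47 and Epas1, which encodes HIF-2alpha, fell by 2.87. Against PFA-perfused cells Epas1 was higher in both PBS-perfused (1.80) and unperfused cells (2.26).

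Of 21 genes of the RNA polymerase I apparatus, which makes Rn45s, 13 rose and 5 fell in injury-activated against unperfused cells, with a median of 0.85. These are 61.9% and 23.8% of the list, against the 40.8% and 29.3% of all entries that rose and fell. The number that fell was 1 and 0 without the first and second injury-activated library and 3 without the first unperfused library. The largest subunit Polr1a rose by 2.25 ± 0.29, from 55.5 and 31.4 to 196 and 209 FPKM, and Polr2e, a subunit shared by the polymerases, by 3.26. Ubtf, which binds the ribosomal RNA gene promoter, did not pass the test (0.30, and -0.10 with quantile normalization). Rrn3, the initiation factor TIF-IA, fell by 0.86 and the subunit Polr1b by 0.67. Neither call held without the first or the second injury-activated library (-0.84 and -0.88 for Rrn3, -0.65 and -0.68 for Polr1b), and that of Polr1b did not hold without the first unperfused library (-0.57).

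Across the uninjured groups the order of the Rrn3 levels was the reverse of that of Rn45s. Rrn3 stood at 14.9 and 10.1 FPKM in PFA-perfused, 41.2 and 29.4 in PBS-perfused and 378 and 403 in unperfused libraries, and rose by 1.43 in PBS-perfused and 4.88 ± 0.26 in unperfused against PFA-perfused cells. Polr1b rose likewise, by 1.10 and 2.92. Over the whole list, 3 rose and 11 fell in unperfused against PFA-perfused cells, which became 8 and 6 with trimmed mean scaling. As deposited these were 14.3% and 52.4% of the list, near the 17.4% and 56.3% of all entries.

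Genes that process the ribosomal RNA precursor rose in 31 and fell in 4 of 49 cases after injury, with a median of 0.99 (29, 7 and 0.79 with trimmed mean scaling). As deposited these were 63.3% and 8.16% of the list, against 40.8% and 29.3% of all entries. Exosc8, a subunit of the RNA exosome, rose by 3.66 and Npm1, the nucleolar protein nucleophosmin, by 3.22. Between PBS-perfused and PFA-perfused cells 21 rose and 5 fell, with a median of 0.36, and 33 and 4 with trimmed mean scaling; 8 fell without either unperfused library. Between unperfused and PFA-perfused cells 18 rose and 12 fell, which became 35 and 6 with trimmed mean scaling. As deposited these were 36.7% and 24.5% of the list, against 17.4% and 56.3% of all entries. The 21 and 5 in PBS-perfused against PFA-perfused cells were 42.9% and 10.2%, against 17.8% and 46.2% of all entries.

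Lars2, a mitochondrial leucyl-tRNA synthetase whose mouse gene holds a repeat that resembles ribosomal RNA, was looked at beside Rn45s. It stood at 1151 and 1630 FPKM in PFA-perfused, 257 and 627 in PBS-perfused, 263 and 362 in unperfused and 558 and 586 in injury-activated libraries. It fell by 1.77 ± 0.43 (SE, limma adjusted p = 0.0059) in PBS-perfused and by 2.15 in unperfused against PFA-perfused cells, both as deposited. With trimmed mean scaling neither passed (-1.16 and -0.98), and with quantile normalization both did (-2.04 and -2.25). The second PBS-perfused library was above the first for both Lars2 and Rn45s. Between injury-activated and unperfused cells it differed by 0.89, which did not pass the test over all 8 libraries but did without the first or the second PBS-perfused library, with the replicate block, and in a model of just these 2 groups.

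Small structural RNAs, mostly the small nucleolar RNAs that guide modification of ribosomal RNA, were represented by 125 entries, of which 86 were tested. After injury 60 fell and 0 rose by limma (0 also at an unadjusted p under 0.05), with a median of -1.37, whereas 29.3% of all entries fell. With trimmed mean scaling 66 fell and 0 rose, and with quantile normalization 63 fell and 2 rose. Without the filter 52 of the 125 fell and 2 rose, where 15.7% of all entries fell and 21.4% rose. In a model of just these 2 groups 58 of 64 fell and 0 rose, where 33.4% of all entries fell and 48.0% rose. The list summed to 902 to 953 FPKM in unperfused and 118 to 141 FPKM in injury-activated libraries. An entry could pass the filter through groups where it was high, so the counts depend on the filter. Snora31 fell by 5.41 ± 0.30 and Snord73a by 5.30 ± 0.29. In PBS-perfused against PFA-perfused cells 46 rose and 12 fell, with a median of 1.01, and 6 fell without the first PBS-perfused library. Of all entries 17.8% rose and 46.2% fell in that comparison. The small nucleolar RNAs of the list mostly lie within introns of host genes and are shorter than a usual fragment. Their values can therefore hold reads of the host transcript.

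Malat1 and Neat1 lie next to each other on chromosome 19, and nearby protein-coding genes were added with values known. After injury 3 of the 5 tested rose, Sssca1 (2.54), Frmd8 (1.53) and Slc25a45 (1.10), 1 fell and 1 was not called. Of all entries 40.8% rose and 29.3% fell. Ltbp3, a binding protein of latent TGF-beta, fell by 3.68 ± 0.18 (SE), from 20.7 and 19.6 to 0.607 and 0.704 FPKM. In unperfused against PFA-perfused cells, where 56.3% of all entries fell, all 5 nearby genes tested fell, and 3 did with trimmed mean scaling. There Sssca1 differed by -2.37, Ltbp3 by -2.12, Frmd8 by -1.85 and Slc25a45 by -0.95, the last of which did not pass with trimmed mean scaling (-0.36) or quantile normalization (-0.28). In PBS-perfused against PFA-perfused and in unperfused against PBS-perfused cells 4 of the 5 fell, and 1 and 2 did with trimmed mean scaling. Of all entries 46.2% and 36.5% fell in these comparisons as deposited.

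**Figure D5:**
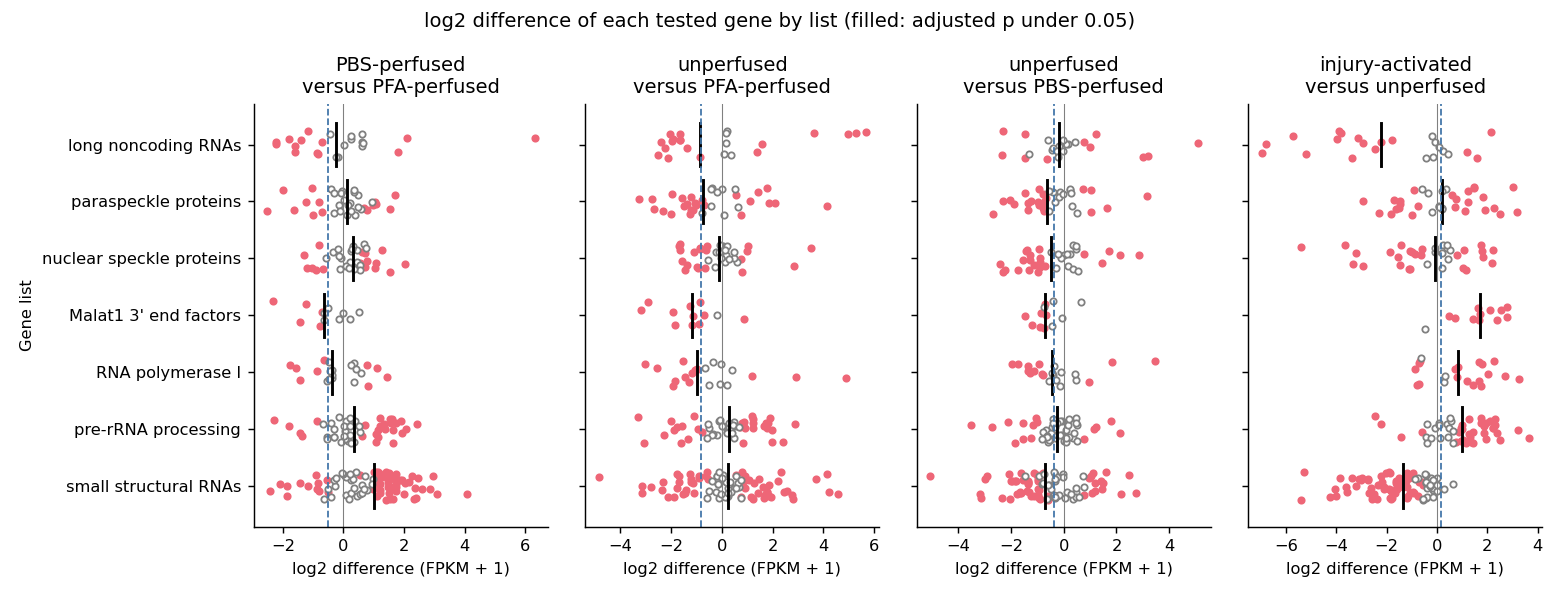
Log2 difference of each tested gene by list in the 4 comparisons, with filled red points for called and open points for other genes, a black bar at the list median and a dashed blue line at the median of all tested genes. After injury the list of genes that act on the Malat1 end has a median of 1.70 and that of long noncoding RNAs one of -2.22.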

How the data were processed

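RNA-seq of 8 libraries of sorted mouse muscle stem cells was analysed from 1 table of 24328 gene symbols. The authors deposited values that were taken as FPKM, although the header names no unit, because they hold decimals and their totals differ between libraries. Per the submitters' processing notes, STAR 2.5.3a, StringTie 1.3.3, R 3.4.1 and mm9 were used, without roles or settings. Of the 20500 entries above 0, 18331 carry more than 6 decimals, and how transcripts were combined to genes is not given in the sources used here. The series design names 2 sequencers without assigning libraries, so a sequencer difference was not tested. The table holds no counts, so depth and counting error are unknown.

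The members and gene lists were chosen with earlier results of these data known. Values were analysed as log2(FPKM + 1). The 12515 entries that reached 1 FPKM in 2 or more libraries entered 1 model of all 8 libraries in limma 3.58.1 (R 4.3.3) with a variance trend. The test was two-sided, and a call needed a Benjamini-Hochberg adjusted p below 0.05. Named were the 3 members, the 5 entries with the highest Pearson r to each, fixed main partners, and up to 4 called genes per list, those that changed most. Not all of them are printed, and some are not reported here. Airn, H19, Peg13 and the neighbours were chosen after their values were seen. Alternatives were a replicate block, a model of just the compared groups, no filter, a filter of 5 FPKM, a pseudocount of 0.1, trimmed mean scaling (trims of 0.3 and 0.05), quantile normalization, removal of Rn45s or of all 3 members, and leaving out each library. On data simulated for PBS-perfused against PFA-perfused cells (200 of 12515 genes changed), 37.5% of log2 changes of 1 were found with 7.41% of calls false, and 100% of changes of 2 with 8.26% false.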

Additional observations from a re-analysis of the deposited data

How the results depend on the processing

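The fit with the replicate number as a block called 8145, 9336, 6418 and 8847 genes (PBS-perfused and unperfused against PFA-perfused, unperfused against PBS-perfused, injury-activated against unperfused), against 8008, 9216, 6205 and 8763 without it. Libraries of the same number deviated together with correlations of -0.0467 to 0.117, so the numbers were not taken to pair libraries. Trimmed mean scaling gave Malat1 log2 differences of 0.50 (reversed), -1.69, -2.18 and -4.04 in that order, Neat1 0.48, 0.49 and 0.02 in the first 3 (all reversed), and Rn45s -8.08 in the second and 3.71 in the last. Quantile normalization gave Malat1 0.97 (reversed), -2.22 and -3.18 in the first 3, Rn45s -8.14 and 3.58, and reversed 3 uncalled genes after injury: Pspc1 to -0.07, Srsf1 to -0.18 and Ubtf to -0.10. Without Rn45s in the table Malat1 differed by -0.29 and -3.09 in the first 2. Neat1 between PBS-perfused and PFA-perfused cells ran from -0.61 to 0.35 over libraries left out. Without Rn45s in the total, Malat1 and Neat1 made up 8.38% and 0.0734% in PFA-perfused cells. As a share of FPKM times annotated length, Malat1 made up 17.3%, 15%, 2.25% and 0.181%, and Neat1 0.452%, 0.408%, 0.272% and 0.00371%, with the groups from PFA-perfused to injury-activated. This could not be run for Rn45s, whose length is not in the reference used. Among named genes, the block changed 1 call, of Lars2 after injury (0.89, passing). The causes were not tested. Depth is unknown, which limits values near 1 FPKM, such as Neat1 after injury.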
